A study of Mus musculus with 93 samples.

Results

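The Iroquois family comprises 6 transcription factor genes in the mouse, Irx1 to Irx6. All 6 were taken by symbol from the 24514 gene symbols of the deposited count table. Their counts were followed across 93 RNA-seq libraries of 10 sorted cells each, from mouse embryos and from cardiac spheroids. Every embryo and the single embryonic stem cell line behind the spheroids carried Hcn4-GFP, Tbx1-Cre and Ai9. Hcn4-GFP is a reporter of the first heart field, and Ai9 turns on red fluorescent protein in cells in which Tbx1-Cre is or has been active, which was used to mark the second heart field lineage. Because a cell and its descendants keep the red label, RFP+ cells need not have expressed Tbx1 at harvest. The embryo groups held 5 GFP+ and 4 RFP+ libraries from dissected regions of embryos, at embryonic day 8.5 by the sample titles and at a stage between days 7 and 8 by the protocol. The spheroid groups held 38 GFP+ and 46 RFP+ libraries sorted on day 5.5 of differentiation after induction with Activin A and Bmp4, following the study's methods. The labels do not tie wells to embryos or differentiations, so p-values measure the spread between wells, which may be technical.

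Iroquois proteins bind DNA through a homeodomain of the TALE class, which has extra residues in the loop between its first helices, and act mostly as regulators of patterning in the neural plate, limbs and heart. In the heart Irx4 is known as a ventricular factor, Irx3 as a regulator of the ventricular conduction system and Irx5 as a setter of the repolarisation gradient across the ventricular wall. Irx1 and Irx2 have been described in the ventricular septum, and Irx6 is the least studied member.

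The genes lie in a pair of clusters with no other protein-coding gene inside them (RefSeq, GRCm38.p6). Coordinates are from GENCODE M21 on GRCm38. The first cluster, on chromosome 13, spans 1312 kb and holds Irx1 (71957921 to 71963723, minus strand), Irx2 (72628820 to 72634198, plus strand) and Irx4 (73260479 to 73269608, plus strand). The second, on chromosome 8, spans 882 kb and holds Irx3 (91798525 to 91802067, minus strand), Irx5 (92357625 to 92376286, plus strand) and Irx6 (92674288 to 92680956, plus strand). Both clusters contributed a member that was counted in RFP+ cells and a member that was nearly uncounted there. In each member the homeobox, the coding stretch for the homeodomain, is an uninterrupted run of 189 bases within an exon. It shows how close the members are and where reads could be shared between them. Irx2 and Irx5, from different clusters, encode the same 63 homeodomain residues, while 17 of the 189 bases differ. The homeoboxes are printed here in coding direction from GENCODE M21, with capitals at the bases where each differs from the Irx5 sequence, and in Irx5 itself at the bases where it differs from Irx2. The Irx5 stretch lies at chromosome 8 from 92359624 to 92359812 and that of Irx2 at chromosome 13 from 72630661 to 72630849. Irx4, which in the embryo had reads only in 2 of 5 GFP+ libraries, differs from Irx5 at 29 bases (chromosome 13, 73267520 to 73267708).
Irx5 homeobox: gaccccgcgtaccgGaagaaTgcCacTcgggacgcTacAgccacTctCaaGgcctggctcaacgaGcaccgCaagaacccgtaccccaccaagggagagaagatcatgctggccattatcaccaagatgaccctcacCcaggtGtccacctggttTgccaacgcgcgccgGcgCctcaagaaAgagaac
Irx2 homeobox: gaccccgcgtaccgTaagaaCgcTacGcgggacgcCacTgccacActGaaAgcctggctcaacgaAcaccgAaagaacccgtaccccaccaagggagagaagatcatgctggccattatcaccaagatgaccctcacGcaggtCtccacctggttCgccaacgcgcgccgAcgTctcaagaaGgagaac
Irx4 homeobox: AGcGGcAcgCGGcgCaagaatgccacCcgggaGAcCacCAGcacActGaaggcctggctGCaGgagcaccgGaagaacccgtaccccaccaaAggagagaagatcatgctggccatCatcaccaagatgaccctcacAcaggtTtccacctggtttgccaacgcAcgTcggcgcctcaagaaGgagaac
Over whole transcripts the longest stretch that Irx2 and Irx5 share is 65 bases, and Irx3 shares 88 bases with Irx6 and 50 with Irx5. The minimum read length after trimming was 36 bases, so reads inside these stretches could have been assigned to either gene or dropped. Irx3 also overlaps the antisense gene Irx3os by 1653 bases and Irx6 overlaps Gm45505 by 785. Whether counting used strand is not stated in the sources used here, so reads of these overlaps cannot be told apart.

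Irx2 and Irx4 are neighbours on the same strand of chromosome 13. In the embryo, Irx2 was read in RFP+ libraries only and Irx4 in 2 of 5 GFP+ libraries only, though no test called Irx4. The 250 bases upstream of each start (RefSeq, GRCm38.p6, plus strand) are shown for that reason, with CpG dinucleotides in capitals. Of the 6 members, 3 matched an entry of the promoter table: Irx2, Irx3 and Irx4.
Irx2 upstream, chr13:72628570-72628819: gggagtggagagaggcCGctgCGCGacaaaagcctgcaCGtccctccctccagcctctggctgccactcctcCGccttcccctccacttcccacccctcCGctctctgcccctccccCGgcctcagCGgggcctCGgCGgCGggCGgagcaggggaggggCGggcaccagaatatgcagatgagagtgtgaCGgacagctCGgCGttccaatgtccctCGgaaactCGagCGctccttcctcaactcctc
Irx4 upstream, chr13:73260247-73260496: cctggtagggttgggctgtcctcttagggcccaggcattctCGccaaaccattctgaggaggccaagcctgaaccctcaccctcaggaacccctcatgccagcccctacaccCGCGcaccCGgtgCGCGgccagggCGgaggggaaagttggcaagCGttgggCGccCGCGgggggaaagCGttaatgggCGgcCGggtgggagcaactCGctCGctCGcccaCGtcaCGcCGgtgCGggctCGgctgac
The Irx2 stretch held 19 CpG and 68.4% G and C, and the Irx4 stretch held 22 CpG and 68.8%, against medians of 6 CpG and 52.4% over all promoters of the table. Base composition therefore placed both near the 88th to 89th percentile and did not separate them. The motif ACANNTGT, a palindromic Iroquois binding motif, was sought on both strands together with TATAAA and the T-box core AGGTGT. The motifs occurred in 6.31%, 12.4% and 11.8% of 32851 promoters, and these letters were not found in the windows of Irx2, Irx3 or Irx4.

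Total counts ranged from 712732 to 2525460 reads in the embryo GFP+ libraries, from 1246546 to 1479957 in embryo RFP+, from 6288 to 4371849 in spheroid GFP+ and from 445071 to 5658882 in spheroid RFP+. The embryo GFP+ libraries detected fewer genes (6189 to 8302) than the embryo RFP+ libraries (10263 to 13052), and this difference stands beside every embryo comparison below. Cardiomyocyte markers marked the embryo GFP+ libraries, with a summed level of 16450 to 42670 CPM over 8 markers against 1052 to 1920 CPM in embryo RFP+. In the spheroids the same sum had a median of 33.4 CPM in GFP+ (at most 1006) and 53.4 CPM in RFP+ (at most 121.8). By these medians the spheroid cells of day 5.5 carried few cardiomyocyte transcripts. Of 3 such markers tested there by edgeR, 2 were called lower in RFP+ and none higher, against 77.9% of all genes called. The second heart field and pharyngeal list had all 10 markers with reads in embryo RFP+, and Tbx1, Lhx2 and Msc were among those without a read in embryo GFP+. Spheroid GFP+ libraries also carried epithelial markers (median 3156 CPM over 5 genes, against 501 CPM in RFP+) and pluripotency markers (206 CPM over 6 genes, against 32.6 CPM). One spheroid GFP+ library, C9, had 6288 reads and none for any member. The next smallest spheroid GFP+ library had 828193.

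In the embryo, Irx1, Irx2, Irx3 and Irx5 were counted in every RFP+ library and almost nowhere in GFP+ libraries. Irx4 showed the opposite distribution in part of the GFP+ libraries, and Irx6 had no read in any of the 9 embryo libraries. Of 15111 genes with a read in the embryo, 605 were read in every RFP+ library and no GFP+ library, as were Irx1, Irx2 and Irx5. Only 3 genes showed the reverse. This comparison asks which members distinguish the second from the first heart field population in vivo. Values are CPM (reads of a gene scaled to a library of 1000000) on the TMM effective library size, and in the embryo libraries 1 read was worth 0.42 to 1.30 CPM.

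Irx2 had the highest mean of the members in the embryo RFP+ cells, a rank that rested on library G12. Its median and that of Irx5 were both 13.2 CPM. Without G12 the mean was 12.4 CPM for Irx2 and 13.7 CPM for Irx5. The values of Irx2 in libraries F12, G11, G12 and H11 were 11.9, 10.8, 26.8 and 14.5 CPM (17, 16, 33 and 21 reads), and it had 0 reads in each of the 5 GFP+ libraries. The groups did not overlap. Against a floor of 3 reads per GFP+ library, Irx2 was at least 6.18-fold higher in RFP+. It was the single member that passed the filter on low counts in this fit, and edgeR's quasi-likelihood test called it (Benjamini-Hochberg adjusted p = 0.0107). With 0 reads in GFP+, Irx2 could pass that filter only through the RFP+ libraries. Its passing is therefore not independent of the difference tested. At the same threshold of 0.1, 858 of 8503 genes were called, which is 10.1% (6.21% higher in RFP+), and 1377 had an unadjusted p under 0.05.

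Irx5 followed, with 14.7, 14.8, 7.30 and 11.7 CPM in the same order of RFP+ libraries and 0 reads in all GFP+ libraries. It was at least 4.70-fold higher in RFP+. Irx3, its neighbour on chromosome 8, measured 9.10, 5.39, 4.87 and 11.7 CPM in RFP+ and 2.60 CPM in a single GFP+ library (2 reads in C12). Pooled over libraries, 44 reads against 2 gave a ratio of 28.5 with a 95% counting interval of 7.43 to 242.5, and the ratio of the group means was 14.9. Irx1 was the lowest of the 4, with 0.70, 0.67, 5.68 and 7.57 CPM in RFP+ (1, 1, 7 and 11 reads). Of the 4 RFP+ libraries, 2 thus held a single Irx1 read, and the bound on its fold was 1.415. Without H11 its mean fell under the GFP+ floor and no fold could be given. Intervals and floors cover counting error only, since reads were amplified by PCR without molecular identifiers.

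Exact two-sided permutation tests of the mean log2 CPM (prior count 2, 126 splits of 4 against 5 libraries) gave p = 0.00794 for Irx1, Irx2 and Irx5 and p = 0.0159 for Irx3. The first value is the smallest this design allows. All 4 members lay higher in every RFP+ library than in every GFP+ library. Of 15111 genes with a read in the embryo libraries, 1730 did so, which is 11.4%, while 327 lay lower in every RFP+ library. DESeq2, the tool of the study's methods, called Irx2 (adjusted p = 5.6e-05), Irx3 (0.0348) and Irx5 (0.000209), at a background of 18.0%. It did not call Irx1 (0.135). Without the filter on low counts, edgeR called Irx1 (0.0786), Irx2 (0.0442) and Irx5 (0.0457) but not Irx3 (0.170). That fit called 2000 of 15111 genes. The call of Irx2 held in each setting tried, including each fit without 1 of the embryo libraries.

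**Figure D1:**
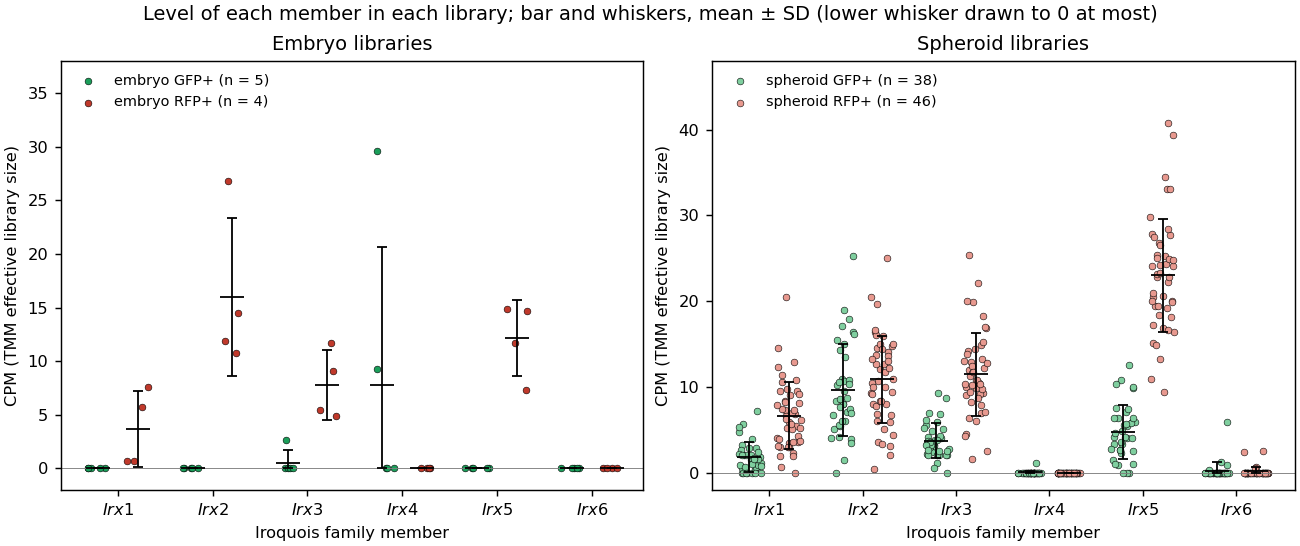
Level of each Iroquois member in CPM in every library, for the embryo (left, 5 GFP+ and 4 RFP+) and the spheroids (right, 38 GFP+ and 46 RFP+); points are libraries and bars with whiskers are mean ± SD, with the lower whisker drawn no further than 0. Irx1, Irx2, Irx3 and Irx5 lie above 0 in all 4 embryo RFP+ libraries, and in the spheroids Irx5 shows the widest separation, with means of 4.79 and 23.0 CPM.

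Irx4, the ventricular member, had 22 reads in embryo GFP+ library B12 and 27 in E12 (9.24 and 29.6 CPM) and 0 reads in A12, C12 and D12 and in all RFP+ libraries. B12 and E12 also had the highest summed cardiomyocyte markers of the 5 GFP+ libraries (42670 and 33880 CPM, against 16450 to 26290 CPM in the others). The link between both measures was not tested. Irx4 was at least 3.60-fold higher in GFP+ than the floor of the RFP+ group, a bound that was 1.07 without E12, and 3 of 5 GFP+ libraries overlapped with RFP+ at 0. An exact permutation test gave p = 0.444, and neither DESeq2 (adjusted p = 0.192) nor edgeR without the filter (0.108) called it. Finding 0 of 4 RFP+ libraries with a read allows a share of up to 75% (3 of 4, the floor of 3 counts used throughout, while the exact 95% interval ends at 60.2%), so the depth and number of libraries could not show absence. The same limit for the 0 of 5 GFP+ libraries with Irx1, Irx2 or Irx5 is 60% (exact interval, 52.2%).

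In the spheroids, Irx5 and Irx3 were higher in RFP+ than in GFP+ cells, Irx1 was higher by the single-gene test, and Irx2 was not called. Unlike in the embryo, these 4 members were counted in most GFP+ libraries as well. Irx5 ranged from 9.37 to 40.8 CPM in RFP+ (median 23.0) and from 0 to 12.6 CPM in GFP+ (median 4.38). Of the 46 RFP+ libraries, 44 lay above the highest GFP+ library. Its log2 fold change was 2.21 ± 0.16 (SE, n = 46 and 38, edgeR adjusted p = 1.0e-22). Irx3 ranged from 1.54 to 25.4 CPM in RFP+ (median 10.8) and from 0 to 9.34 CPM in GFP+ (median 3.33), with 32 RFP+ libraries above the highest GFP+ library and a log2 fold change of 1.58 ± 0.16 (adjusted p = 5.9e-15). In this comparison 77.9% of 9940 genes were called (37.8% higher in RFP+), so being called did not set Irx3 and Irx5 apart from most genes.

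Irx2, the member with the highest mean in embryo RFP+ cells, did not separate the spheroid populations. It measured 10.9 ± 5.10 CPM (SD, n = 46) in RFP+ and 9.63 ± 5.36 CPM (n = 38) in GFP+, with ranges of 0.41 to 25.0 and 0 to 25.3 CPM. The log2 fold change was 0.14 ± 0.17, with a 95% interval from -0.21 to 0.48 (adjusted p = 0.484). No RFP+ library exceeded the highest GFP+ library. Whether the RFP+ to GFP+ difference of Irx2 in the embryo differs from that in the spheroids was not tested by an interaction term.

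Irx1 averaged 6.64 ± 3.92 CPM in RFP+ and 1.82 ± 1.71 CPM in GFP+. It fell under the filter on low counts, and a permutation test with 100000 resamples gave p = 1.0e-05, the smallest value those resamples can give, as it did for Irx3 and Irx5. Irx2 gave p = 0.28 in the same test. Without the filter edgeR called Irx1 with a log2 fold change of 1.84 (adjusted p = 6.9e-09), and DESeq2 gave 1.80 (7.8e-13). Those fits called 13109 of 21827 and 10735 of 16358 genes. No member had all RFP+ libraries above all GFP+ libraries, a pattern shown by 0.541% of 21827 genes.

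Irx4 and Irx6 were nearly uncounted in the spheroids. Irx4 had 4 reads in 1 of 38 GFP+ libraries and none in 46 RFP+ libraries, which allows a share of up to 6.52% there (exact interval, 7.71%). Without the filter edgeR called that difference (adjusted p = 0.0335) on those 4 reads, while the permutation test gave p = 0.451 and DESeq2 returned no adjusted p. Irx6 had 24 reads in 4 GFP+ libraries, 21 of them in a single library, and 9 reads in 4 RFP+ libraries (permutation p = 0.766). Irx6 shares 88 bases with the more abundant Irx3, and whether any of these few reads came from Irx3 was not tested.

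The share of libraries with a read depends on depth, so its value at 400000 reads per library was also computed, which leaves out C9. Irx1 was detected in 31 of 38 GFP+ and 45 of 46 RFP+ libraries (Fisher's exact test, two-sided, p = 0.0204), and at equal depth in 46.7% and 86.8%. Irx5 was detected in 35 of 38 and 46 of 46 (p = 0.0885), and at equal depth in 77.4% and 99.95%. Irx3 was detected in 37 of 38 and 46 of 46 (p = 0.452), and at equal depth in 76.4% and 97.0%. Irx2 differed least, with 94.5% and 94.7% at equal depth. All of Irx1, Irx2, Irx3 and Irx5 were found together in 30 of 38 GFP+ and 45 of 46 RFP+ libraries, and in 4 of 4 embryo RFP+ libraries. Each library pools 10 cells, so fewer cells with a transcript and less RNA per cell cannot be told apart.

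**Figure D2:**
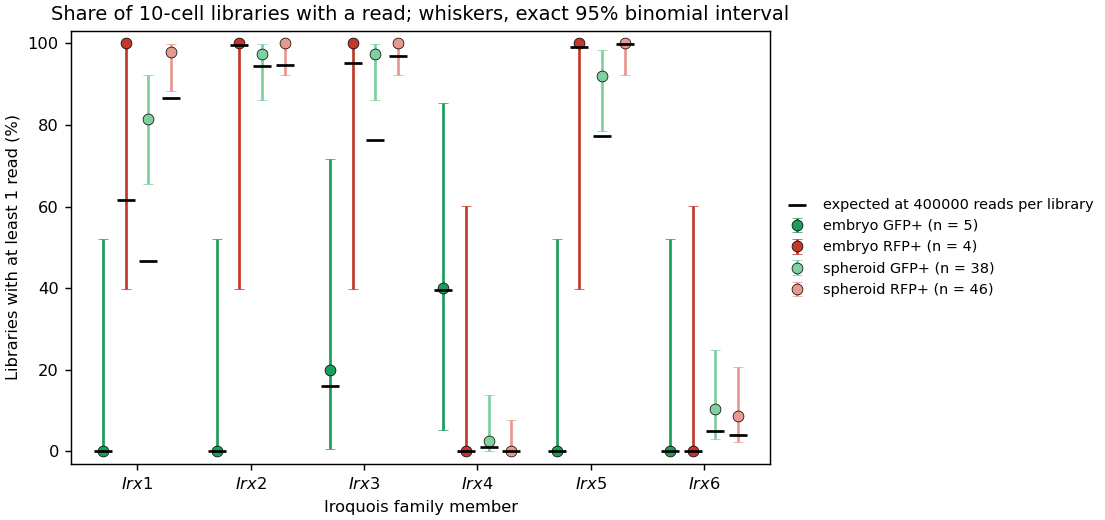
Percent of libraries with at least 1 read of each member in the 4 groups, with exact 95% binomial intervals; short black lines give the share expected at 400000 reads per library. Irx1, Irx2 and Irx5 sit at 0 in embryo GFP+ and at 100% in embryo RFP+, a pattern of 605 of 15111 genes. The equal-depth share of Irx1 in spheroids is 46.7% in GFP+ and 86.8% in RFP+.

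On the sort plate, spheroid RFP+ libraries filled columns 1 to 6 and GFP+ libraries columns 7 to 11, so plate column and population cannot be told apart. Within each of the 8 plate rows, the RFP+ mean was above the GFP+ mean for Irx1, Irx3 and Irx5, and in 4 of 8 rows for Irx2. Column means of Irx5 ranged from 20.5 to 31.1 CPM over the RFP+ columns and from 4.38 to 5.70 CPM over the GFP+ columns. With plate row as a covariate Irx3 and Irx5 remained called and Irx2 did not. Neighbouring RFP+ wells of plate columns 3 and 4 gave 7 near-identical pairs (correlation of log counts 0.976 to 0.994). They still differed beyond sampling noise (chi-square per degree of freedom 1.37 to 2.39, against 2.85 to 10.6 in 200 other pairs) and were kept as separate libraries. With those pairs summed the calls were as before.

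The make-up of the family differed between the populations of the spheroids, a pattern chosen after the values were seen and described with no test. Levels were divided by the exonic length of each gene to compare members. In spheroid RFP+ libraries Irx5 led with 7.36 ± 2.11 CPM per kb, above Irx3 (4.16 ± 1.75) by more than either SD, while Irx3, Irx2 (3.31 ± 1.55) and Irx1 (2.53 ± 1.49) lay within an SD of their neighbour in the order. In spheroid GFP+ libraries Irx2 led with 2.94 ± 1.63 CPM per kb, followed by Irx5 (1.53 ± 1.01), Irx3 (1.35 ± 0.73) and Irx1 (0.69 ± 0.65), each within an SD of the next. In embryo RFP+ libraries the order was Irx2 (4.87 ± 2.24), Irx5 (3.88 ± 1.13), Irx3 (2.81 ± 1.17) and Irx1 (1.40 ± 1.34), with Irx2 and Irx5, and Irx5 and Irx3, within an SD of each other. As a share of all family reads per kb, Irx5 made up 42.6 ± 8.34% in spheroid RFP+, 22.6 ± 11.1% in spheroid GFP+ and 31.6 ± 13.8% in embryo RFP+. Irx2 made up 18.9 ± 7.71%, 43.9 ± 13.7% and 37.0 ± 13.1%.

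**Figure D3:**
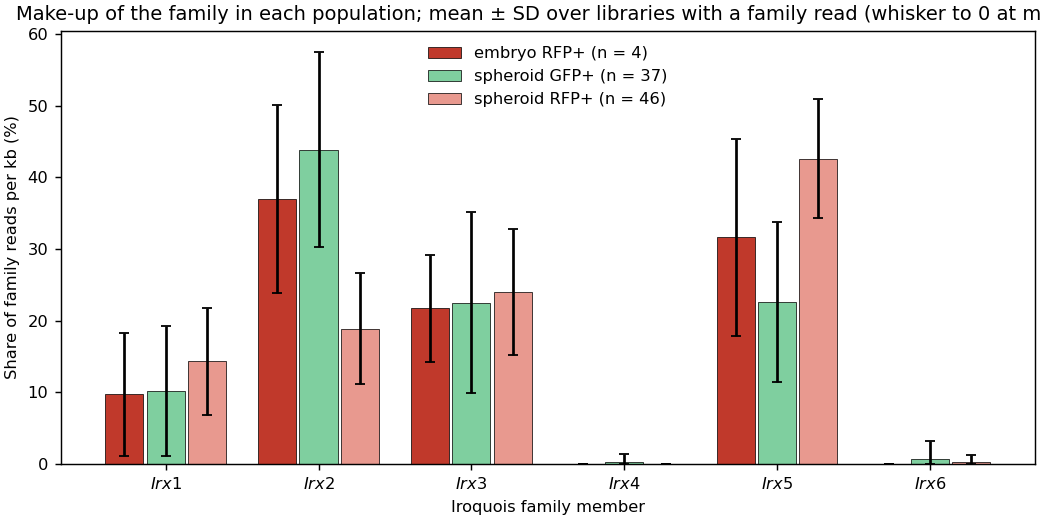
Mean share of each member in the family's reads per kb of exon, with SD over the libraries that had a family read (4 embryo RFP+, 37 spheroid GFP+, 46 spheroid RFP+); the embryo GFP+ group is left out because only 3 of its libraries had a family read. Irx5 holds 42.6% in spheroid RFP+ and 22.6% in spheroid GFP+, and Irx2 18.9% and 43.9%.

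Library by library, Irx5 had more reads than Irx2 in 43 of 46 spheroid RFP+ libraries, while Irx2 had more in 31 of 37 spheroid GFP+ libraries. In the embryo RFP+ libraries each was ahead in 2 of 4. Irx2 exceeded Irx1, its neighbour on chromosome 13, in 35 of 37 spheroid GFP+, 35 of 46 spheroid RFP+ and 4 of 4 embryo RFP+ libraries. Irx5 exceeded Irx3, its neighbour on chromosome 8, in 22 of 37, 43 of 46 and 3 of 4.

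**Figure D4:**
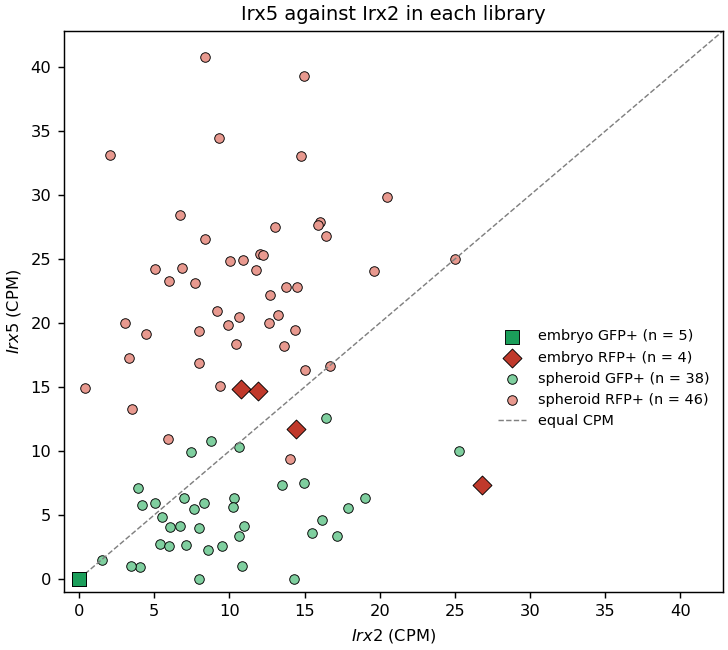
Irx5 against Irx2 in CPM in each library, with the line of equal CPM dashed; circles are spheroid libraries, diamonds embryo RFP+ and squares embryo GFP+ libraries, which all lie at 0 for both genes. Spheroid RFP+ libraries lie above the line in most cases and spheroid GFP+ libraries below it, and the 4 embryo RFP+ libraries lie on both sides.

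The 4 members counted in embryo RFP+ cells were also counted in spheroid RFP+ cells, and Irx2 and Irx5, with no read in embryo GFP+ cells, were counted in most spheroid GFP+ libraries. These comparisons cross source, plate column and detection rate, which cannot be told apart, and the mean CPM quoted here are scaled within each source while the tests scale each pair of groups together. Among GFP+ libraries the median of all 11822 genes tested lay at a log2 fold change of -0.67 (embryo against spheroid), and 68.0% were called (48.3% lower in the embryo). Irx2 was lower in the embryo, with 0 reads in 5 libraries against 9.63 CPM, by at least 4.14-fold (edgeR adjusted p = 1.1e-09), and Irx5 by at least 2.06-fold (3.5e-06). With no embryo read, both could pass the filter on low counts only through the spheroid libraries. Irx3 had 2 reads in the embryo GFP+ libraries and 267 in the spheroid GFP+ libraries, a pooled ratio of 14.8 with a counting interval of 4.06 to 123.0 and a ratio of group means of 8.26 (exact permutation test, p = 5.8e-05). The spheroid mean of Irx1 was under the embryo floor, so no fold is given (exact permutation test, p = 0.00218). Irx4 went the other way, with 7.77 ± 12.8 CPM in embryo GFP+ and 0.030 ± 0.18 CPM in spheroid GFP+ (exact permutation test, p = 0.0111), and rested on libraries B12 and E12. DESeq2 did not call it (adjusted p = 0.24), while edgeR without the filter did (4.1e-11).

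Among RFP+ libraries 42.6% of 11147 genes were called (22.5% lower in the embryo), and Irx5 was the only member called of the 4 tested. Its log2 fold change of embryo against spheroid was -0.85 ± 0.26 (edgeR adjusted p = 0.00886), at 12.1 ± 3.53 CPM (SD, n = 4) against 23.0 ± 6.59 CPM. Irx1, Irx2 and Irx3 gave log2 fold changes of -0.77, 0.61 and -0.50, with 95% intervals of -1.90 to 0.35, -0.14 to 1.36 and -1.24 to 0.24. These intervals include differences of over 2-fold, so equal levels were not shown.

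Within a population, correlations between members from well to well were weak. Over 39 spheroid RFP+ libraries, with near-identical wells summed, Pearson's r of log2 CPM was 0.033 between Irx3 and Irx5 and 0.31 between Irx1 and Irx5. Over 37 spheroid GFP+ libraries it was 0.004 and 0.25. Over both populations r was 0.66 and 0.64, and each of these genes differs between the populations. The members had medians of 3 to 37 reads in these groups, and in counts this sparse a weak correlation is no finding.

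Among the genes most like each member over the 77 spheroid libraries, by r of log2 CPM among genes of at least 10 CPM, were Fstl1, H2afz, Ranbp1 and Nnat for Irx5 (r 0.885 to 0.860). For Irx3 they were Sf3b5, Mif, Nnat, Col2a1 and Prdx4 (0.801 to 0.775), and for Irx1 Hnrnpa0, Sub1, Snrpd1, 2010107E04Rik and Tmsb10 (0.757 to 0.738). Irx2 had no gene above 0.593 (Aamdc, Tubgcp5, Fnta, Dip2b and Zfp945), and without C9 its highest value of these 5 was 0.426. Within RFP+ libraries alone, the leading genes were Zfp689 for Irx5 (0.600), Prrc2a for Irx3 (0.659), Gpx1 for Irx1 (0.643) and Foxp1 for Irx2 (0.597). The 77 libraries pool both populations, between which 77.9% of the genes tested were called, so r over them includes the difference between populations. All of these values are descriptions over libraries that share a plate.

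Of the nearest protein-coding genes outside the clusters, 1 was called in the embryo, where 10.1% of all genes tested were called. Of 12 neighbours, 3 on each side of each cluster, 11 were in the count table and 8 were tested in the embryo. Ndufs6, a subunit of respiratory complex I next to Irx4, was higher in RFP+ (log2 fold change 1.57 ± 0.35, adjusted p = 0.0128) and none was lower. The median of the 8 was 0.90 against 0.09 over all genes tested. Fto, which flanks Irx3 and whose intron is known to hold distal Irx3 enhancers, measured 37.8 CPM in embryo GFP+ and 54.3 CPM in embryo RFP+ (0.52 ± 0.98, adjusted p = 0.924). In the spheroids all 7 tested neighbours were called, 5 higher in RFP+ (Ndufs6, Mrpl36, Fto, Rpgrip1l and Mmp2) and 2 lower (Ice1 and Aktip), with log2 fold changes between -0.69 and 0.58, in a comparison that called 77.9% of all genes. Crnde, a long non-coding RNA gene next to Irx5 that was picked after its values were seen, was higher in spheroid RFP+ by 2.38 ± 0.17, close to the 2.21 of Irx5. In the embryo it had reads in 4 of 4 RFP+ libraries (24.5 CPM on average) and in 1 of 5 GFP+ libraries (34.3 CPM in A12), and was not called (adjusted p = 0.799).

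Other TALE homeobox genes include the Pbx and Meis cofactors of Hox proteins. None of the 10 tested of 12 was called in the embryo by edgeR, which called 10.1% of all genes. Their median log2 fold change was 1.20 against 0.09 over all genes. At an unadjusted p under 0.05 the count was 1 (Pbx2), against 1377 of all 8503 genes tested. DESeq2 called 1 of 11, against 18.0% of all genes. In the spheroids 6 of 11 were called higher in RFP+ and 4 lower, against 77.9% of all genes called and 37.8% called higher. Those with the largest changes included Pknox2 (1.69 ± 0.22), Pbx4 (-1.47 ± 0.20) and Pbx2 (0.93 ± 0.18).

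Of 15 genes tied to Irx factors in heart studies, 8 were tested in the embryo, with 4 called lower and 1 higher in RFP+ (10.1% of all genes called, 6.21% higher) and a median of -3.94. Among the called genes the largest changes were in Tbx5, a first heart field factor (-7.80 ± 1.15, adjusted p = 0.00122), and Myh6, a cardiac myosin heavy chain (-7.20 ± 0.49, 5.3e-06). Next came Cxcl12, the chemokine ligand of Cxcr4 (6.39 ± 1.61, 0.0248), and Bmp10, a trabecular growth factor (-5.39 ± 1.68, 0.0766). Bmp10 had reads in all 5 GFP+ libraries and in 1 RFP+ library. Kcnd2, the potassium channel gene regulated by Irx5 in adult ventricle, had no read in the embryo and a read in 4 of 38 and 1 of 46 spheroid libraries. In the spheroids 4 were tested: Hand1 (-4.39 ± 0.37) and Hand2 (-4.25 ± 0.30), both heart field transcription factors, were lower in RFP+, Cxcl12 was higher (15.4 against 5.20 CPM, adjusted p = 5.2e-06), and Gja1, a gap junction protein, was not called (0.09 ± 0.06, adjusted p = 0.135).

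Markers of other tissues that express Iroquois genes are given beside the members. In the embryo, the 8 neural markers summed to 10.3 to 60.9 CPM in RFP+ libraries, with Neurog2 and Hes5 at 0, and to 0 to 7.29 CPM in GFP+ libraries, where only Pax6 had a read. The 8 paraxial mesoderm markers summed to 49.7 to 109.5 CPM in RFP+ (Tbx6 and Ripply2 at 0) and had no read in GFP+. Surface ectoderm markers, 5 of 7 with a read, summed to 2.07 to 30.8 CPM in RFP+ and had none in GFP+. Endoderm markers summed to 5.39 to 14.6 CPM in RFP+ and at most 26 CPM in GFP+. In the spheroids the paraxial sum had a median of 148.4 CPM in RFP+ and 11.7 CPM in GFP+, the neural sum 66.0 and 41.2 CPM, the endoderm sum 197.4 and 14.8 CPM and the surface ectoderm sum 12.1 and 60.8 CPM. The part of these cell types in the Irx levels was not tested.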

How the data were processed

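RNA-seq was made from 93 libraries of 10 sorted cells (poly-A priming, template switching, 19 PCR cycles, Tn5). Per the labels and the study's methods, the authors trimmed reads with Trimmomatic 0.36 (quality 35, minimum length 36), aligned them with HISAT2 2.0.4 to mm10 and counted them per gene with featureCounts 1.5.2. They deposited raw counts, and the annotation and strand setting are not given in the sources used here. From these counts, CPM on TMM library sizes and edgeR 4.0.16 quasi-likelihood tests (R 4.3.3, filterByExpr) were computed over all genes, with a call at a Benjamini-Hochberg adjusted p under 0.1, as in the study's methods. DESeq2 1.42.0, other normalizations and filters, leaving out libraries and summing near-identical wells were alternatives. Members under the filter were tested singly by permutation of log2 CPM (prior count 2) and Fisher's exact test on detection. The edgeR fit of RFP+ against GFP+ was tested on simulated counts, and the other steps were not. Groups and wells came from sample titles. These do not say which wells share an embryo or a differentiation, so nothing could be paired. Totals of 445071 to 5658882 reads, leaving out C9, set the precision: 1 read was at most 2.27 CPM.

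The members and gene lists were chosen with earlier results of these data known. Named genes were all 6 members, the 4 called genes of each list with the largest change, the 3 nearest protein-coding neighbours on each side and the 5 genes most like each member with a read in at least 80% of spheroid RFP+ libraries. Neighbours came from RefSeq genes on GRCm38.p6. Of 24514 symbols, 96.8% matched GENCODE M21. A few genes that these rules name are not reported here.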

Additional observations from a re-analysis of the deposited data

Results flagged for a closer look

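A gap test (Dixon) on the members, Crnde and the marker sums of the embryo groups made 26 tests and marked 5 values in 4 libraries, where chance marks about 1 in 20 groups. Each case is a single library with a value in a group otherwise at 0, for which the test has its largest value by construction. Irx3 measured 2.60 CPM in embryo GFP+ library C12 and 0 in the other 4. Crnde measured 34.3 CPM in embryo GFP+ library A12 and 0 in the other 4. The neural marker sum was 7.29 CPM in A12, from Pax6, and the pluripotency marker sum was 0.42 CPM in embryo GFP+ library B12. The blood marker sum was 1107 CPM in embryo RFP+ library F12 and 0 in the other 3 RFP+ libraries, while its values of Irx1, Irx2, Irx3 and Irx5 lay within the range of those 3. Without F12, Irx2 stayed called. The 4 members still lay higher in every RFP+ library than in every GFP+ library. Each gave p = 0.0179 in the exact permutation test, the smallest value that 56 splits allow. That test therefore could not show an influence of F12.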

How the results depend on the processing

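Of 258 values of single members recomputed under an alternative, 246 kept their direction and their side of the threshold or, for shares at equal depth, moved by under 10 points. In the embryo, 1 member was called, against 3 with DESeq2 and 3 without the filter, and 1 to 2 on leaving out each library. Irx5 joined Irx2 without GFP+ library A12, C12 or E12 or RFP+ library G12. Over all genes the count was 858 of 8503 with edgeR, 1945 of 10784 with DESeq2 and 2000 of 15111 without the filter. It was 613 to 1044 on leaving out each library. In the spheroids, 2 members were called, against 3 with DESeq2 and 4 without the filter. The counts over all genes were 7747 of 9940, 10735 of 16358 and 13109 of 21827. Between GFP+ groups, 2 members were called, against 4 with DESeq2, 5 without the filter and 3 without C9 or without any 1 of the embryo GFP+ libraries, where Irx3 passed the filter. All genes called there were 8036 of 11822, 9226 of 14367 with DESeq2 and 11757 of 21087 without the filter. Leaving out C9 gave 8171 of 11953, and leaving out 1 embryo GFP+ library gave 8488 to 8608. Fisher's tests passing p of 0.05 rose from 1 to 2 in the spheroids and from 0 to 1 between RFP+ groups at a minimum of 3 reads, and fell from 4 to 3 in the embryo, where Irx1 was lost (p = 0.167). At that minimum the difference in libraries with Irx6 turned to 1.72 percentage points, and that of Irx1 between embryo and spheroid RFP+ to -43.5 points (-25.1 at 400000 reads). The cause was not tested. At 400000 reads the spheroid GFP+ share of libraries with Irx1 falls to 46.7%, Irx3 to 76.4% and Irx5 to 77.4%. The embryo groups of 4 and 5 libraries cannot give a permutation p under 0.00794.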
